A study of Mus musculus with 18 samples.

Results

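Sham-operated kidneys of TIMP2-/- mice were compared with sham-operated kidneys of TIMP3-/- mice, as whole-kidney RNA on 6 of the 18 arrays of the series. The 6 arrays were chosen by their labels alone, 3 from TIMP2-/- mice and 3 from TIMP3-/- mice. All mice were of the C57BL/6 strain, and the kidney ipsilateral to the surgery was removed 3 days later. In the sham operation the mice had the same surgery as the others, but the right ureter was not tied. The series also held 3 sham-operated wild-type (WT) kidneys, and 3 kidneys of each genotype after unilateral ureteral obstruction (UUO), in which the right ureter was ligated. These other arrays place the difference between the knockouts, and they also enter the estimate of the spread between kidneys, which is shared by all 6 groups. The labels call the samples biological replicates, and they give neither the age nor the sex of the mice nor how the alleles were made.

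TIMP2 and TIMP3 belong to the tissue inhibitors of metalloproteinases, small secreted proteins that block the enzymes that cut the extracellular matrix. TIMP2 also helps the membrane enzyme MT1-MMP to activate the precursor of the gelatinase MMP2 at the cell surface. TIMP3 is held in the matrix and, beside matrix metalloproteinases, it inhibits the sheddase ADAM17, which releases TNF and other membrane-anchored ligands.

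Between the knockouts, 17 of 22626 probe sets differed (0.0751%; limma, adjusted p under 0.05, Benjamini-Hochberg over all probe sets). A probe set is a group of short probes read as 1 measurement, and several can stand for 1 gene. Of these, 8 were higher in TIMP2-/- sham kidneys (0.0354%) and 9 were lower (0.0398%). They covered 11 named genes, which were Timp3, BC018473, Wdfy1 and Lsm12 on the higher side and Timp2, Nedd4, Zmynd11, Jmy, Zbtb7a, Mgp and Dnmt3a on the lower side, and 3 probe sets had no gene symbol. The values of the 3 and 3 kidneys did not overlap at any of the 17, against 2848 of all probe sets (12.6%). The 17 were chosen by p on the same values, which favours this, so it is no separate support. With the spread taken from the 6 arrays alone 11 passed, 8 of them among the 17, and with the 9 sham arrays alone 11 passed, 9 of them among the 17. The calls lost in both were those at Timp2, Lsm12, Dnmt3a, Mgp, Jmy, Zmynd11, 1425583_at and 1427037_at, and 1456319_at was lost with the 6 arrays only. The count was 10 without TIMP2 sham 1, 9 without TIMP2 sham 2, and 10 without either TIMP3 sham 1 or TIMP3 sham 2, and in these the probe sets lower in TIMP2-/- kidneys numbered 2, 2, 3 and 3.

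The 6 arrays were of like brightness, with median intensities from 201.2 to 213.7. Quantile normalization, part of the processing named by the submitters, brings arrays to a common distribution, so like medians are no check of quality. The ratio of 3' to 5' actin probes, a sign of RNA integrity, lay between 1.36 and 1.48. That ratio was 0.924 to 0.978 for Gapdh and 17.6 to 21.6 for pyruvate carboxylase, and an 18S control probe set read 10198 to 15537. The median standard error of a log2 difference was 0.177, and the number of arrays, 3 a group, limits the precision. The median difference over all probe sets was 0.02 on the log2 scale, which the same normalization keeps small. A first principal component with 56.4% of the variance among the 6 arrays spread the kidneys within both groups, and the second, with 19.1%, placed the 3 TIMP2-/- kidneys (4.0 to 22.8) above the 3 TIMP3-/- kidneys (-20.3 to -9.6). Markers of kidney tubules were bright in all 6, and Umod, the uromodulin of the thick ascending limb, read 22497 to 24494 in TIMP2-/- kidneys and 23984 to 24620 in TIMP3-/- kidneys. Nothing in the arrays tells fewer cells of a type from less RNA per cell.

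**Figure D1:**
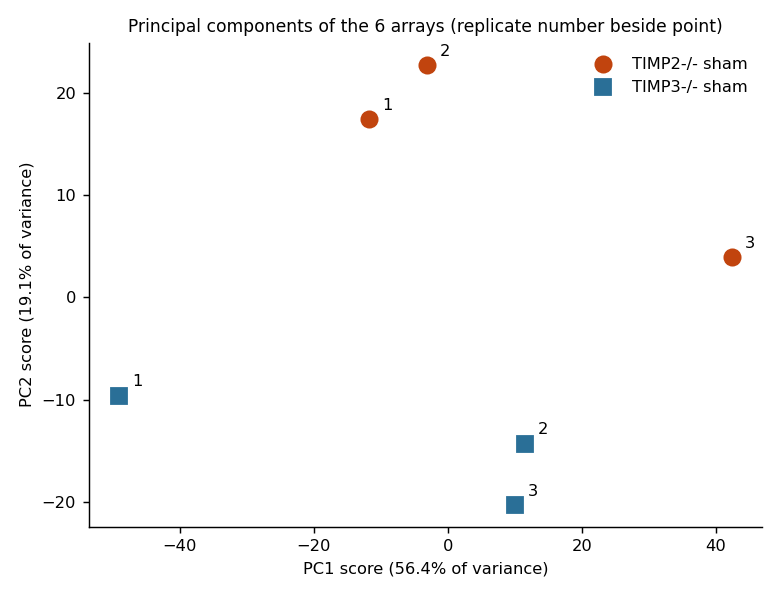
Principal component scores of the 6 sham arrays, with the first component (56.4% of the variance) across and the second (19.1%) up; each point is 1 kidney, with its replicate number beside it. The first component runs from -11.7 to 42.4 within TIMP2-/- kidneys and from -49 to 11.5 within TIMP3-/- kidneys, and the groups are apart on the second.

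The promoters of Timp3 and Timp2 are shown because these are the genes that the knockouts lack and the values below turn on them. They are RefSeq sequences of assembly GRCm38.p6 from 250 bases before to 50 bases after the gene start, read 5' to 3' on the gene's strand, at chr10:86300162-86300461 (plus strand) for Timp3 and chr11:118355362-118355661 (minus strand) for Timp2. Capitals mark matches to the motifs searched on both strands.
Timp3: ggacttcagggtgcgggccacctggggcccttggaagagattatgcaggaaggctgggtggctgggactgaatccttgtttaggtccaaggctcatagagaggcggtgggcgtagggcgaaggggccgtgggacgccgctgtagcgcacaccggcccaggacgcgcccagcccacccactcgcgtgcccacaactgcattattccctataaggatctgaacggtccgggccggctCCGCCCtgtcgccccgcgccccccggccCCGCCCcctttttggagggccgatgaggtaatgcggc
Timp2: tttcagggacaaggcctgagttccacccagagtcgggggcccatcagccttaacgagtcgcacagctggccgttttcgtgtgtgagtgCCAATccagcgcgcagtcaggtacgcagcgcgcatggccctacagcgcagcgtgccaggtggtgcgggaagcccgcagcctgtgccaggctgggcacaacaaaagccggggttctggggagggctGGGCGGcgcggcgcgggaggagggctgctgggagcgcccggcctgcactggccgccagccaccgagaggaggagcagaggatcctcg
The GC box GGGCGG matched at 2 places in the Timp3 promoter and at 1 in the Timp2 promoter, and 35.7% of the 32851 promoters in the table hold it. The CCAAT box, CCAAT, matched once in the Timp2 promoter and not in that of Timp3 (37.4% of promoters). The TATA box TATAAA (13.6%) and the AP-1 site TGANTCA (7.81%) had no match in either window. G and C made up 67% of the Timp3 window and 68.7% of the Timp2 window.

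Timp3 transcript was near background in all 3 TIMP3-/- kidneys and abundant in all 3 TIMP2-/- kidneys. Probe set 1449334_at read 4148, 3956 and 3642 intensity units in TIMP2-/- sham kidneys, against 50.7, 39.8 and 40.8 in TIMP3-/- sham kidneys and 4149, 4765 and 4264 in WT sham kidneys. The TIMP2-/- and TIMP3-/- ranges were far apart. Each TIMP2-/- value lay below all of WT, but the nearest were 4148 and 4149, and at 1419088_at the TIMP2-/- and WT values overlapped. The difference was 6.49 ± 0.12 on the log2 scale (SE; limma adjusted p = 1.16e-14). The other 3 Timp3 probe sets differed by 6.47 to 6.68, all past the threshold. TIMP2-/- kidneys differed from WT sham kidneys by -0.17 at 1449334_at, -0.13 at 1419088_at, -0.73 at 1419089_at and -0.79 at 1449335_at, none past the threshold in limma (adjusted p 0.143 to 0.652). The TIMP3-/- means lay under 56.8, the lowest 25th percentile of intensity of any array, so the size of these differences is inexact.

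Timp2 was lower in TIMP2-/- kidneys at all 6 of its probe sets, but by much less. Probe set 1433662_s_at read 681, 571 and 668 in TIMP2-/- sham kidneys, against 1237, 1274 and 1129 in TIMP3-/- sham kidneys and 1091, 1475 and 971 in WT sham kidneys. The TIMP2-/- values lay below all 6 others, and the TIMP3-/- values lay within the WT range. The difference was -0.93 ± 0.16 (adjusted p = 0.0378 in limma), the only one of the 6 to pass, and it missed the threshold when any 1 of the 6 arrays was left out (adjusted p 0.104 to 0.315). The other 5 ranged from -0.74 to -0.07, and the values of 4 of the 6 did not overlap between the knockouts. The sources used here do not say where the probes sit on the alleles, so a remaining Timp2 signal does not check the labels in the way the Timp3 values do.

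**Figure D2:**
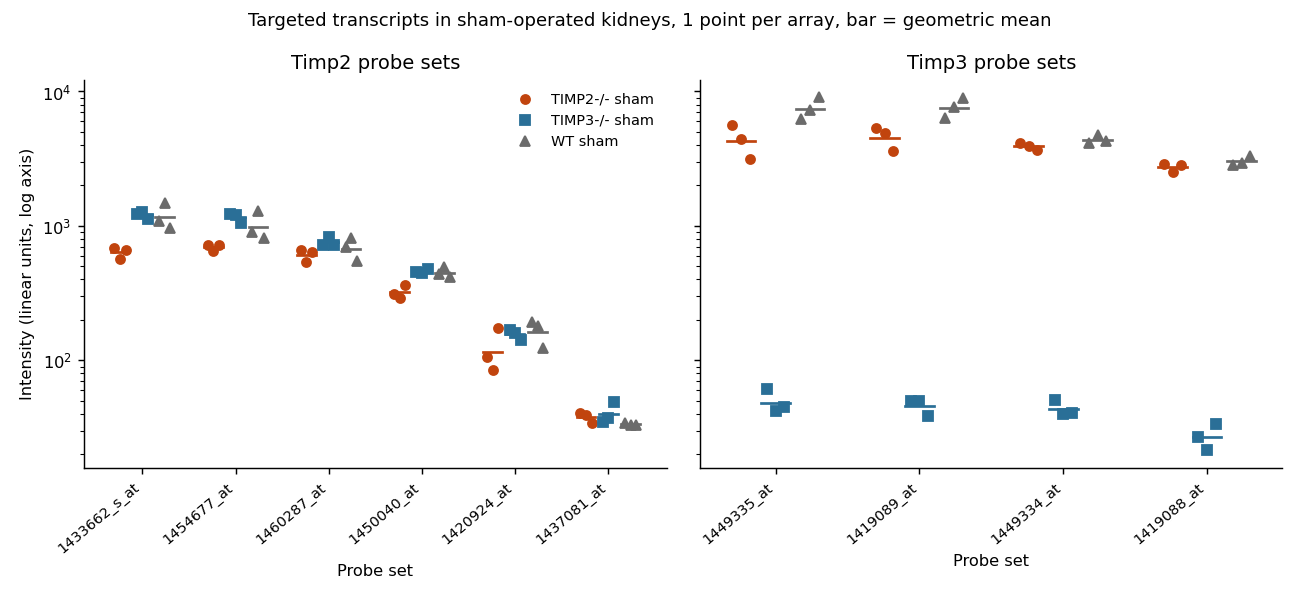
Intensity (log axis) of the 6 Timp2 and 4 Timp3 probe sets on the 9 sham arrays; points are single kidneys and bars are geometric means, with TIMP2-/- left, TIMP3-/- in the middle and WT right. The TIMP3-/- kidneys lie near the bottom of the scale at every Timp3 probe set, and the TIMP2-/- kidneys keep a reduced signal at the brighter Timp2 probe sets.

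The other members of the family did not pass. Timp1, an inhibitor induced by injury, read 99.5, 73.9 and 121 in TIMP2-/- kidneys and 129, 144 and 195 in TIMP3-/- kidneys, a difference of -0.68 ± 0.52 with values that did not overlap. Timp4 differed by 0.09 and 0.21 at its 2 probe sets, the second dim in both knockouts and the first in TIMP3-/- kidneys. Reck, a membrane-anchored inhibitor of the same enzymes, differed by 0.10 ± 0.16 (95% interval -0.24 to 0.45).

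BC018473, which the RefSeq table lists as a long noncoding RNA on chromosome 11, was the most raised named transcript after Timp3. Its probe set 1427451_a_at read 274, 521 and 551 in TIMP2-/- sham kidneys, against 18.1, 33.2 and 29.7 in TIMP3-/- sham kidneys and 32.1, 32.9 and 26.7 in WT sham kidneys. All 3 TIMP2-/- kidneys were bright, while the other 6 were near background, so the size is inexact. The difference was 4.03 ± 0.24 (limma adjusted p = 1.3e-07). A second probe set of the gene, 1427453_at, was dim in all 9 sham kidneys and differed by 0.13 ± 0.18.

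Wdfy1, a protein of early endosomes with WD repeats and a FYVE domain, stood at 610, 576 and 733 in TIMP2-/- sham kidneys, against 122, 98.3 and 106 in TIMP3-/- sham kidneys and 99.6, 98.8 and 120.1 in WT sham kidneys. The TIMP2-/- kidneys formed a group of their own, and the TIMP3-/- and WT values overlapped. The transcript was 5.87-fold higher in TIMP2-/- kidneys (log2 2.55 ± 0.14; limma adjusted p = 3.95e-08). Its other 2 probe sets differed by 1.65 ± 0.33 (adjusted p = 0.112 in limma) and by 0.41 ± 0.19.

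Lsm12, which encodes a protein with an LSM domain, rose less. It read 749, 638 and 589 in TIMP2-/- sham kidneys, against 379, 416 and 409 in TIMP3-/- sham kidneys and 452, 456 and 387 in WT sham kidneys. The TIMP2-/- values again lay above all 6 others. The transcript was 1.64-fold higher (log2 0.71 ± 0.11; limma adjusted p = 0.0187), and the call was lost without any 1 of TIMP2 sham 1, TIMP2 sham 2 or the 3 TIMP3 sham arrays (adjusted p 0.0738 to 0.121). The probe set 1425583_at, with no symbol, read 49.5, 56.3 and 32.5 in TIMP2-/- kidneys and 15.8, 16.9 and 19.6 in TIMP3-/- kidneys, a difference of 1.37 ± 0.17 between dim values (adjusted p = 0.00249 in limma).

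The largest difference in the other direction among named genes that passed was at Nedd4, a ubiquitin ligase that marks membrane proteins for removal. Probe set 1421955_a_at read 265, 312 and 238 in TIMP2-/- sham kidneys, against 1355, 1068 and 817 in TIMP3-/- sham kidneys and 272, 409 and 308 in WT sham kidneys. Here the TIMP3-/- kidneys stood apart, above every TIMP2-/- and WT kidney. The transcript was 3.92-fold lower in TIMP2-/- kidneys (log2 -1.97 ± 0.28; limma adjusted p = 0.00732), with adjusted p values of 0.0547, 0.0722 and 0.0532 without TIMP2 sham 1, TIMP3 sham 1 and TIMP3 sham 2. The gene's other 2 probe sets differed by -0.20 and -0.16, and neither passed.

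Dnmt3a encodes an enzyme that places new methyl groups on DNA, and it read 121, 111 and 152 in TIMP2-/- sham kidneys, against 236, 238 and 266 in TIMP3-/- sham kidneys and 147, 154 and 120.5 in WT sham kidneys. The TIMP3-/- values again lay above all others, and the transcript was 1.94-fold lower in TIMP2-/- kidneys (log2 -0.96 ± 0.14; limma adjusted p = 0.00732). This held at 1 of 5 probe sets, and the other 4 lay between -0.22 and 0.05. Zbtb7a, a zinc finger repressor of transcription, read 229.6, 207.5 and 211 in TIMP2-/- sham kidneys, against 434, 436 and 448 in TIMP3-/- sham kidneys and 226, 229.5 and 209 in WT sham kidneys. It was 2.04-fold lower in TIMP2-/- kidneys (log2 -1.03 ± 0.14; limma adjusted p = 0.00721). Zmynd11, a reader of histone marks, read 157, 144 and 116.5 in TIMP2-/- sham kidneys, against 378, 271 and 325 in TIMP3-/- sham kidneys and 196, 235 and 298 in WT sham kidneys. The TIMP2-/- kidneys were lowest here, with WT in between and overlapping TIMP3-/- (log2 -1.22 ± 0.20; limma adjusted p = 0.032), and the gene's other 2 probe sets differed by -0.53 and -0.33 without passing. The call at Dnmt3a was lost without TIMP2 sham 1, TIMP2 sham 2 or TIMP3 sham 3 (adjusted p 0.06 to 0.0842), that at Zbtb7a without TIMP2 sham 2 (0.0659), and that at Zmynd11 without any 1 of the 6 arrays (0.058 to 0.211).

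Mgp, the matrix Gla protein that keeps soft tissue from calcifying, was the brightest of the lower group. It read 3093, 3801 and 5341 in TIMP2-/- sham kidneys, against 7614, 7913 and 8344 in TIMP3-/- sham kidneys and 4444, 5093 and 3925 in WT sham kidneys. The TIMP3-/- kidneys were above the others, and the TIMP2-/- and WT values overlapped. The difference was -1.0 ± 0.16 (limma adjusted p = 0.0226), lost without any 1 of TIMP2 sham 1, TIMP2 sham 2 or the 3 TIMP3 sham arrays (0.0913 to 0.165). Jmy, a cofactor of p53 that also nucleates actin, read 22.6, 27.0 and 29.6 in TIMP2-/- kidneys and 52.2, 68.3 and 50.8 in TIMP3-/- kidneys, a difference of -1.11 ± 0.18 between dim values (limma adjusted p = 0.0226) that was lost without the same 5 arrays (0.0597 to 0.189). The gene's other 2 probe sets differed by 0.12 ± 0.14 and -0.04 ± 0.12. The probe sets 1456319_at and 1427037_at, with no symbol, differed by -2.06 ± 0.25 and -1.22 ± 0.19 (adjusted p in limma 0.00139 and 0.0187), and the second was lost without TIMP2 sham 1, TIMP2 sham 2, TIMP3 sham 1 or TIMP3 sham 2 (0.0874 to 0.131).

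**Figure D3:**
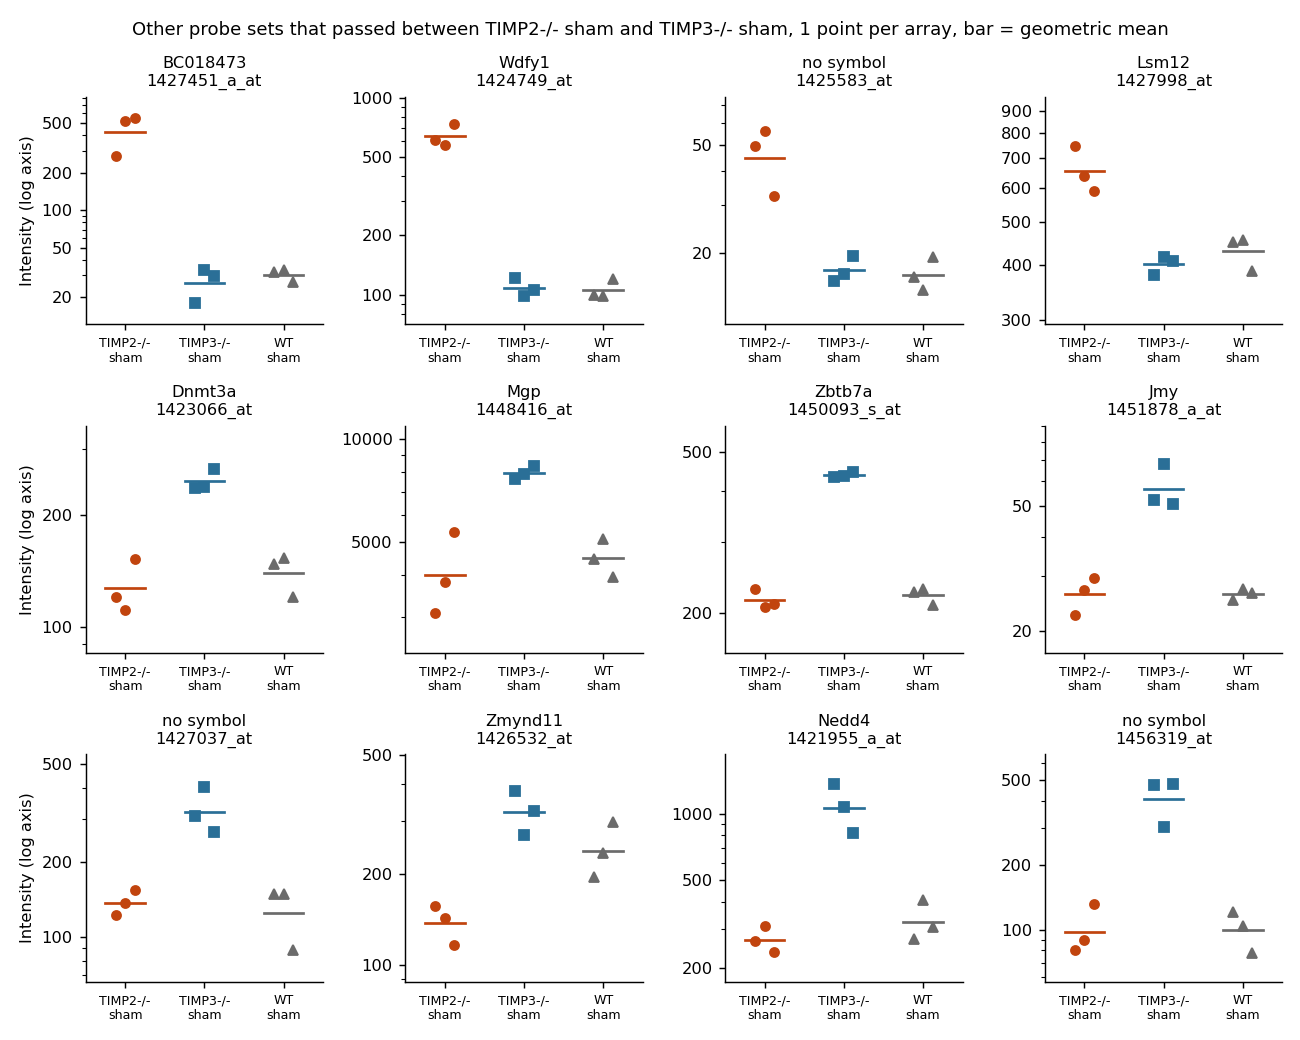
Intensity (log axis) of the 12 other probe sets that passed, on the 9 sham arrays; points are single kidneys, bars geometric means, with TIMP2-/- left, TIMP3-/- in the middle and WT right. The TIMP2-/- kidneys stand alone in the top row, and the TIMP3-/- kidneys stand alone in most of the other panels.

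Genes that came close without passing are given as values. Myl4, a myosin light chain of the atria, differed by 0.83 ± 0.16 (adjusted p = 0.109 in limma), with 164.5, 143 and 181.5 in TIMP2-/- kidneys and 74.6, 101 and 101 in TIMP3-/- kidneys. Ctse, the protease cathepsin E, differed by 1.67 ± 0.33 (0.109), with 223, 353 and 334 in TIMP2-/- kidneys and 88.9, 75.6 and 121 in TIMP3-/- kidneys. The mitochondrial genes Ndufa12, of respiratory complex I, and Nnt, a transhydrogenase that makes NADPH, differed by 0.72 ± 0.15 (0.124) and 0.71 ± 0.17 (0.35). Ndufa12 was higher at 2 of its 4 probe sets and Nnt at both of its 2. Cnbd2, which encodes a protein with a cyclic nucleotide binding domain, and Hsd17b11, a dehydrogenase of lipid droplets, differed by 0.94 ± 0.20 (0.182) and 0.81 ± 0.19 (0.248). In the other direction, Hus1, part of a DNA damage checkpoint clamp, differed by -0.88 ± 0.16 (0.0545), Slc29a3, a lysosomal nucleoside transporter, by -1.34 ± 0.24 (0.063) and Fbxw2, a substrate adaptor of ubiquitin ligases, by -0.58 ± 0.11 (0.063). The knockouts' values did not overlap for any of these 9 genes at the probe set given, beside 12.6% of all probe sets. The choice by smallest p on the same values favours this, so it is no separate support. Other probe sets of these genes showed less: 0.16 ± 0.15 for Myl4, 0.10 ± 0.44 for Ctse, 0.34 ± 0.11 for Hsd17b11, -0.29 ± 0.20 for Hus1, 0.10 ± 0.16 for Slc29a3 and -0.12 to 0.16 over the other 5 of Fbxw2.

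The WT sham kidneys show where each knockout lay against the control genotype, with the caution that each of these comparisons shares its knockout arrays with the one above. The WT arrays also had actin ratios of 1.49 to 1.52, above the 6 knockout arrays, and pyruvate carboxylase ratios of 16.7 to 17.3, below them. WT sham 3 stood apart from the other WT arrays. On the first component of all sham arrays (67.8% of the variance) it lay at 77.5, and WT sham 1 and 2 at 21.1 and 20.5. The knockout arrays spread there from -58.4 to 24.9. TIMP2-/- sham kidneys differed from WT sham kidneys at 5 probe sets (0.0221%), and TIMP3-/- sham kidneys at 10 (0.0442%). The first count was 10 without TIMP2 sham 1 and 3, 2 and 3 without WT sham 1, 2 and 3, and the second was 5 or 6 without any 1 of its 6 arrays. In limma, unadjusted p was under 0.05 at 25.8% of probe sets for TIMP2-/- against WT and 10.6% for TIMP3-/- against WT. Between the knockouts the share was 3.91%. Over all genes, each read by its brightest probe set, the median difference from WT sham was 0.14 for TIMP2-/- and 0.11 for TIMP3-/- kidneys. List levels relative to WT sham, given below, include this general shift. Of the 17, TIMP2-/- kidneys had passed against WT at BC018473 (3.81), Wdfy1 (2.59) and 1425583_at (1.43), where TIMP3-/- kidneys differed from WT by -0.22, 0.04 and 0.05. The other 2 of its 5 were Myl4 (1.20) and 1425502_x_at, which has no symbol. TIMP3-/- kidneys had passed against WT at the 4 Timp3 probe sets, Nedd4 (1.70), Zbtb7a (0.99), Jmy (1.11), Dnmt3a (0.82), 1456319_at (2.04) and 1427037_at (1.36), where the TIMP2-/- differences from WT, Timp3 aside, lay between -0.27 and 0.14. By overlap of values, 6 of the 17 were apart from WT in TIMP2-/- kidneys alone, 8 in TIMP3-/- kidneys alone and 3 in both, beside 41.5% of all probe sets for TIMP2-/- against WT and 14.6% for TIMP3-/- against WT.

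The same genotypes after UUO were measured in other kidneys, whose arrays gave no value to the sham difference but share the estimate of the spread with it. There 1597 probe sets differed between TIMP2-/- and TIMP3-/- kidneys (7.06%), a count that ran from 112 to 5577 when 1 of those 6 arrays was left out (435, 547 and 112 without TIMP2 UUO 1, 2 and 3, and 188, 151 and 5577 without TIMP3 UUO 1, 2 and 3). All 17 probe sets of the sham comparison kept their direction, and 16 passed again. Leaving Timp2 and Timp3 aside, 12 of 12 kept their direction and 11 passed. BC018473 differed by 3.91 ± 0.24, with 257, 273 and 265 in TIMP2-/- UUO kidneys against 18.4, 15.03 and 19.8 in TIMP3-/- UUO kidneys. Wdfy1 differed by 1.94 ± 0.14, with 496, 521 and 484 in TIMP2-/- UUO kidneys against 124, 133 and 133 in TIMP3-/- UUO kidneys. Neither overlapped between the knockouts. The Wdfy1 gap at this probe set was smaller after UUO than after sham, but the contrast between them did not pass (unadjusted p 0.00741, adjusted p 0.362 in limma). At 1453426_a_at of the same gene the gap was larger after UUO (1.19) than after sham (0.41), also without passing (unadjusted p 0.00936, adjusted p 0.368 in limma). Nedd4 differed by -3.14 ± 0.28, with 559.5, 622 and 350.5 in TIMP2-/- UUO kidneys against 4545, 5807 and 3183 in TIMP3-/- UUO kidneys.

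Mgp was the exception. It read 27683, 27575 and 26499 in TIMP2-/- UUO kidneys, against 25541, 27814 and 31128 in TIMP3-/- UUO kidneys. The values overlapped and lay above every sham value, and the difference was -0.04 ± 0.16 (limma adjusted p = 0.862). WT UUO kidneys read 26284, 26363 and 24504. These Mgp values after UUO are among the brightest given here, and whether so bright a signal still tracks the amount of RNA was not tested. The test of the difference between the sham and UUO contrasts called no probe set in limma (0 of 22626, 0%), while 2266 had an unadjusted p under 0.05 (10%), 8 of the 17 among them. The 17 were chosen by p in the sham contrast, which enters this test, so the 8 cannot be weighed against the 10%. Without TIMP3 UUO 3 it called 335. Timp2 came closest, with 832, 897 and 742 in TIMP2-/- UUO kidneys against 5304, 4785 and 4242 in TIMP3-/- UUO kidneys, a difference of -2.53 after UUO and -0.93 after sham (adjusted p of the contrast between them 0.0611 in limma). For Mgp that adjusted p was 0.278.

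**Figure D4:**
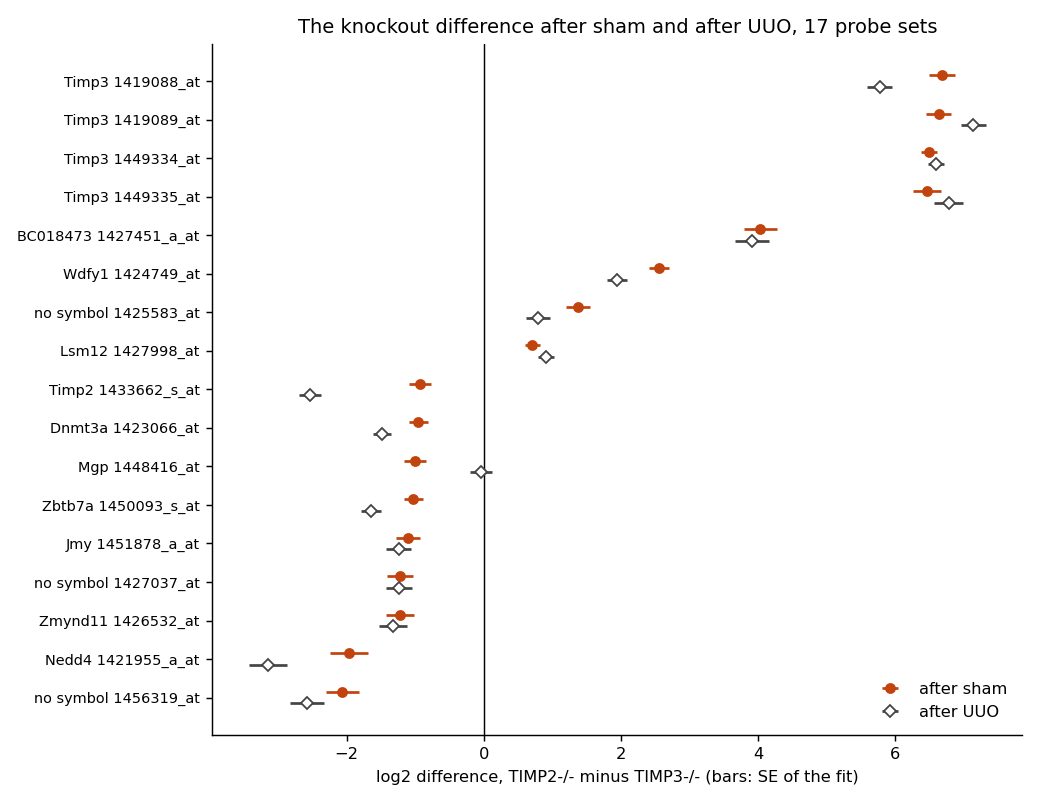
The log2 difference TIMP2-/- minus TIMP3-/- at the 17 probe sets after sham (filled circles) and after UUO (open diamonds), with the SE of the fit as bars. All lie on the same side of 0 after both operations, and Mgp lies at -0.04 after UUO.

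By position, BC018473 and Lsm12 lie on chromosome 11 with Timp2, 49 and 446 entries of the RefSeq gene table from it, and Zbtb7a lies on chromosome 10 with Timp3, 161 entries from it. The other named genes that passed lie on chromosomes 1, 6, 9, 12 and 13. Of the genes given above as close without passing, Myl4 and Hus1 lie on chromosome 11, and Ndufa12 and Slc29a3 on chromosome 10. The rest of those lie on chromosomes 1, 2, 5 and 13. Among the 15 genes on each side of Timp2, 16 were measured with 28 probe sets, and none passed in limma (smallest adjusted p 0.931, median log2 difference 0.18). Among the 15 on each side of Timp3, 7 were measured with 11 probe sets, and none passed (differences between -0.11 and 0.23).

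Across 45 gene lists for pathways and cell types, with 721 measured genes, Timp3 and Timp2 were the only members that passed. Over all 12393 genes, each read by its brightest probe set, 3 were called higher (Timp3, BC018473 and Lsm12) and 3 lower (Timp2, Mgp and Zbtb7a), and the median difference was 0.03. The list medians ran from -0.29 to 0.18, so the differences below are values within a set that did not pass.

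The enzymes that the inhibitors act on showed no called member. The median over 15 matrix metalloproteinases was 0.01, and over 15 ADAM and ADAMTS proteases -0.02. Mmp2, the gelatinase whose activation TIMP2 aids, read 198, 199.6 and 241 in TIMP2-/- kidneys and 209, 258 and 213 in TIMP3-/- kidneys, a difference of -0.09 ± 0.37. Mmp14, which encodes MT1-MMP, differed by -0.03 ± 0.40, and the sheddase gene Adam17 by -0.05 ± 0.33. These 3 were picked for their role with values in view. Mmp12, the macrophage elastase, had the lowest difference of its list at -0.83 ± 0.45, with 54.65, 57.3 and 42.2 in TIMP2-/- kidneys and 99.9, 93.0 and 80.8 in TIMP3-/- kidneys. Mmp12 was dim in TIMP2-/- kidneys. Mmp13, an interstitial collagenase that was dim in every sham group, differed by -0.47 ± 0.63. In the ADAM list Adamts15 and Adamts10 differed by 0.30 ± 0.26 and 0.11 ± 0.13. Among 17 ligands and receptors that are shed, the median was 0.04 and the range -0.25 (Hbegf) to 0.34 (Met, the receptor of hepatocyte growth factor), with the interleukin 6 receptor gene Il6ra at -0.23 ± 0.17.

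Genes of the interstitial matrix were lower in TIMP2-/- than in TIMP3-/- kidneys for 19 of 25 members, with a median of -0.23. Against WT sham, the median was 0.15 for TIMP2-/- and 0.36 for TIMP3-/- kidneys, beside 0.14 and 0.11 over all genes. The mean level of the list relative to WT sham lay at -0.141, 0.103 and 0.171 in TIMP2-/- kidneys. In TIMP3-/- kidneys it lay at 0.243, 0.277 and 0.165, so the groups overlapped. Col3a1, the chain of type III collagen, read 942, 914 and 870.3 in TIMP2-/- sham kidneys, against 2020, 1761 and 1504 in TIMP3-/- sham kidneys and 1027, 1254 and 1218 in WT sham kidneys. The groups did not overlap, and the difference was -0.95 ± 0.22 (limma adjusted p = 0.266). Col15a1 differed by -0.42 ± 0.19. Markers of fibroblasts, pericytes and smooth muscle had a median of -0.19, with 14 of 16 lower, among them S100a4 at -0.64 ± 0.35 and Tagln at -0.50 ± 0.26. The mean level of these markers overlapped too, at 0.257 in TIMP2 sham 3 and 0.239 in TIMP3 sham 3. After UUO, 15 of the 25 matrix genes and 9 of the 16 mesenchymal markers were called lower in TIMP2-/- kidneys, beside 223 of all 12393 genes. Basement membrane genes had a median of 0.02, between Lama2 at -0.51 ± 0.13 and Lamb3 at 0.65 ± 0.21.

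No immune list held a call. The median was -0.29 over 8 genes of MHC class II presentation (7 lower), -0.15 over 21 macrophage and monocyte markers (19 lower) and -0.13 over 24 interferon-induced genes (19 lower). Of the MHC genes, H2-Aa and H2-Eb1 differed by -0.37 ± 0.15 and -0.39 ± 0.17. Ctss, the lysosomal protease cathepsin S, read 867, 604 and 571 in TIMP2-/- kidneys and 1084, 1103 and 873 in TIMP3-/- kidneys, a difference of -0.60 ± 0.23. Lyz2, the lysozyme of myeloid cells, differed by -0.56 ± 0.24, and the interferon-induced GTPases Gbp2 and Igtp by -0.55 ± 0.22 and -0.37 ± 0.21. The mean level of the macrophage list relative to WT sham lay at 0.23, 0.17 and 0.41 in TIMP2-/- kidneys and at 0.30, 0.63 and 0.49 in TIMP3-/- kidneys on the log2 scale, so the groups overlapped. Over all genes, 5388 of 12393 were lower. Of the other immune lists, neutrophil markers had a median of 0.03 (8 of 10 higher), genes of the TNF and NF-kappaB pathway 0.04 (12 of 17 higher), complement genes -0.02 (5 higher and 5 lower), chemokines and cytokines -0.07 (17 of 27 lower) and lymphocyte and NK markers -0.11 (13 of 17 lower).

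No tubule or injury list held a call. The median was 0.07 over 21 proximal tubule genes, with Slc5a2, the glucose transporter SGLT2, at 0.35 ± 0.33 and the amino acid transporter gene Slc7a8 at 0.28 ± 0.23. It was 0.08 over 24 genes of the loop, distal tubule and collecting duct, with the water channel gene Aqp2 at 0.60 ± 0.52 and the potassium channel gene Kcnj1 at -0.46 ± 0.35. After UUO, 16 of the 21 proximal tubule genes were called higher in TIMP2-/- kidneys, beside 707 of all genes. Over 17 tubular injury genes the median was -0.15, with 12 lower and 5 higher. Havcr1, the injury marker KIM-1, read 145, 125 and 155 in TIMP2-/- sham kidneys, against 216, 194 and 212 in TIMP3-/- sham kidneys and 139, 149.6 and 143 in WT sham kidneys. The TIMP3-/- kidneys stood above both other groups, and the difference was -0.55 ± 0.21 with an adjusted p of 1 in limma, while Krt8, an epithelial keratin, differed by 0.32 ± 0.16 and lay with Krt18, Krt19, Clu and Anxa2 on the positive side. The median was 0.09 over podocyte and 0.07 over endothelial markers, 0.03 over oxidative phosphorylation and -0.06 over fatty acid oxidation. Cpt1a, the entry enzyme of fatty acid oxidation in mitochondria, read 4260, 4504 and 4239 in TIMP2-/- kidneys and 6895, 6181 and 6442 in TIMP3-/- kidneys (log2 -0.58 ± 0.12; limma adjusted p = 0.109), and Acaa1a, a thiolase of peroxisomes, differed by 0.46 ± 0.22.

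**Figure D5:**
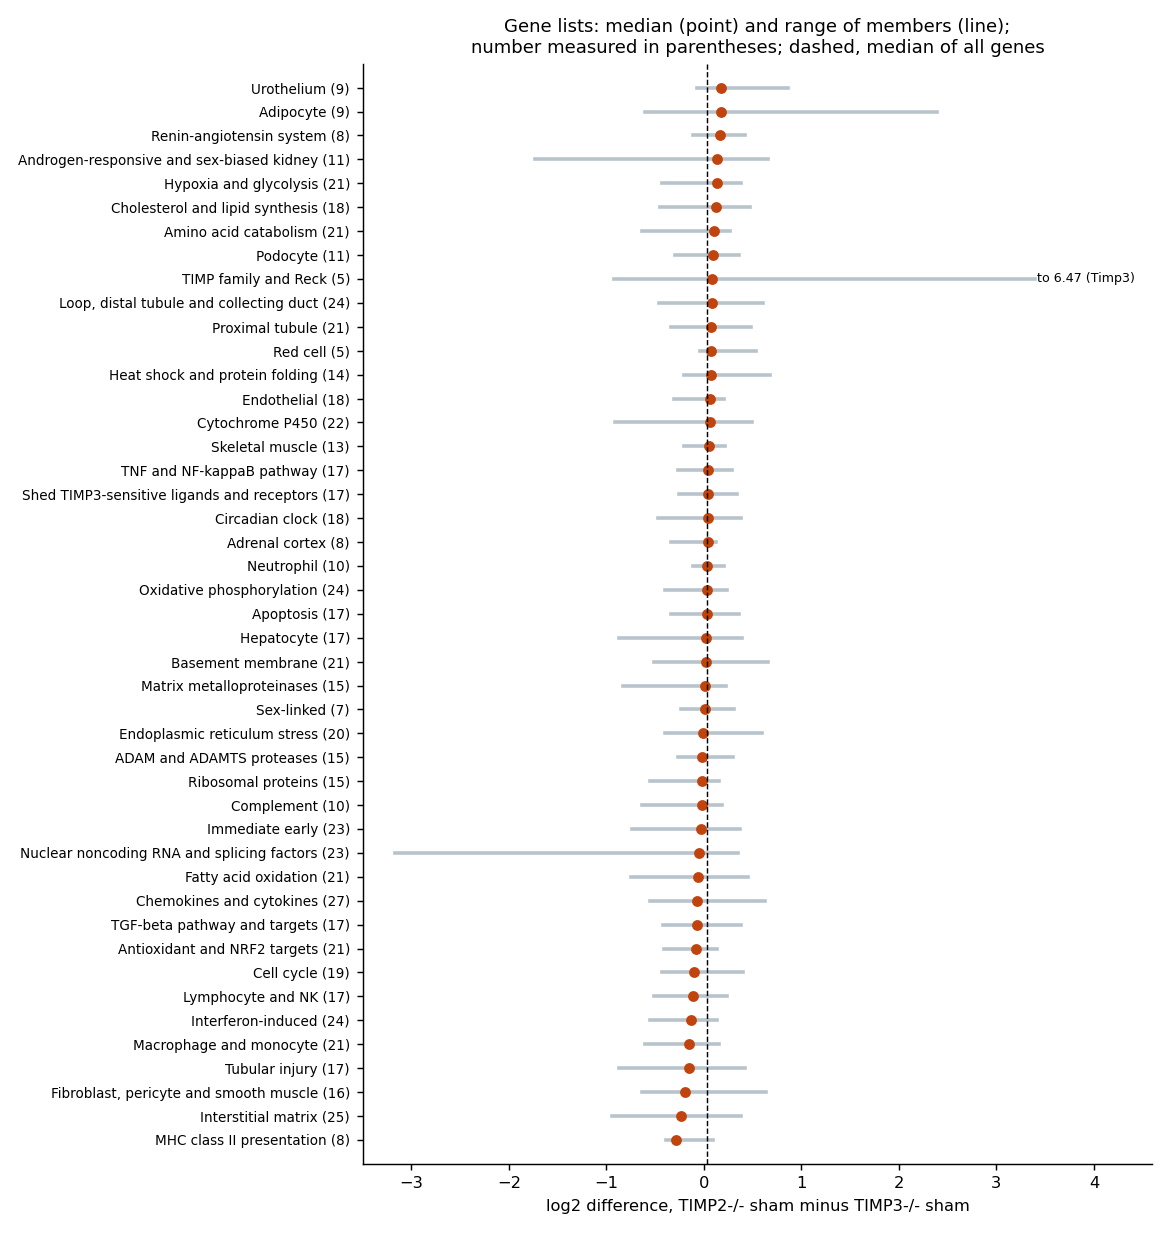
Median (point) and range of members (line) of the log2 difference TIMP2-/- sham minus TIMP3-/- sham for 45 gene lists, with the number measured in parentheses; the dashed line is the median of all genes, 0.03. Medians lie between -0.29 (MHC class II presentation) and 0.18 (urothelium), and the line that runs off the axis is Timp3, at 6.47 in the TIMP family.

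Markers of tissues that can come along with a dissected kidney varied widely between single kidneys of a genotype. Adipoq, the fat cell hormone adiponectin, read 66.4, 582 and 728 in TIMP2-/- kidneys and 202.5, 25.3 and 37.8 in TIMP3-/- kidneys, a difference of 2.40 ± 1.21 with overlapping values. Cidec, a lipid droplet protein, differed by 1.10 ± 0.65 and was dim in TIMP3-/- kidneys. Of 9 adipocyte markers 7 were higher and 2 lower in TIMP2-/- kidneys. Over the 9 adipocyte markers the mean level relative to WT sham was -0.02, 0.69 and 0.59 in TIMP2-/- kidneys and 0.27, -0.26 and -0.14 in TIMP3-/- kidneys. The urothelial marker Upk3b, a uroplakin, read 159, 532 and 481.5 in TIMP2-/- kidneys and 312, 168 and 129 in TIMP3-/- kidneys, and 7 of 9 urothelial markers were higher, with a mean level of -0.01, 0.58 and 0.63 in TIMP2-/- kidneys and 0.13, 0.30 and 0.01 in TIMP3-/- kidneys. TIMP2 sham 2 and 3 were high for both lists, and the part of these tissues in the differences above was not tested.

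Malat1, a nuclear noncoding RNA, had the lowest difference of all 12393 genes without passing. It read 501, 303.5 and 183 in TIMP2-/- sham kidneys, against 5399, 1943 and 1937 in TIMP3-/- sham kidneys and 361, 964 and 4410 in WT sham kidneys. The knockouts did not overlap at any of its 5 probe sets, while WT spanned both. The difference was -3.17 ± 0.76 (limma adjusted p = 0.314), and -4.06 after UUO (0.0125).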

How the data were processed

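The deposited values were intensities on a linear scale, 1 per probe set and array of an Affymetrix mouse expression array, and the submitters' processing notes name RMA, which combines background correction, quantile normalization and a summary over probes. Its version and the step back to a linear scale are not given in the sources used here. Quantile normalization hides a shift of all transcripts together. Values were taken to log2 with no pseudocount, and 64 control probe sets were left out. Of 22626 others, 20380 had 1 gene symbol in the platform annotation, 691 several and 1555 none, and a probe set with several or none names no gene. The RefSeq table of assembly GRCm38.p6 changed no symbol of the 20351 probe sets matched to it. No build is named for the values.

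One model with 6 group means was fitted to all 18 arrays (limma 3.58.1 in R 4.3.3, 12 residual and 3.28 prior degrees of freedom), p-values were adjusted by Benjamini-Hochberg over 22626 probe sets, and the steps were tested on simulated data. An exact permutation test of 3 against 3 cannot go below p = 0.1, and was not used. A group mean under 56.8 is called dim or near background. For the lists, a gene was read by its brightest probe set. Genes were named by rule: the inhibitors and Reck, 1 probe set of each gene that passed without overlap, the smallest p values to make up 10 in each direction, and the 2 smallest p values of a described list with no call, not all of which are printed. Exceptions, chosen after values were seen, are Mmp2, Mmp14, Adam17, Hbegf and Umod. The members and lists were chosen with earlier results of these data known. The alternatives tried were other array sets, a replicate block, scaling, a pseudocount, filters, probe set choice, prior and array weights.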

Additional observations from a re-analysis of the deposited data

How the results depend on the processing

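Direction was rerun for the 17 called probe sets, and none turned. Among these reruns 227 stayed on the same side of the threshold and 60 lost the call. The calls at the 4 Timp3 probe sets, BC018473 1427451_a_at and Wdfy1 1424749_at were kept under every alternative that held the probe set. Some alternatives did not hold it. With 1 probe set a gene, Wdfy1 was read by 1437358_at and was not called. Without suffixed probe sets, BC018473 was left with 1427453_at, which was not called. With the mean of a gene's probe sets both genes passed. The count of 17 became 11 with the 6 arrays alone (8 of them among the 17) and 11 with the 9 sham arrays alone (9 among the 17), 26 without WT UUO 2, WT sham 3 and TIMP3 UUO 2, which had stood apart in an earlier look, 5 with 1 probe set a gene, 6 with the mean of a gene's probe sets, 393 with array weights, and 9 to 17 leaving out 1 array. The 8 higher became 3, 4 and 113 with 1 probe set a gene, the mean and array weights, and 7 to 9 leaving out 1 array. The 9 lower became 3 with the 6 arrays, 4 with the 9, 16 without the 3 arrays, 2 with 1 probe set a gene, 2 with the mean, 5 without suffixed probe sets, 280 with weights, and 2 to 8 leaving out 1 array. List members called, 2, became 1 with the 6 arrays, the 9, 1 probe set a gene, the mean, no suffixed probe sets, or any 1 array left out, and 24 with weights. The weights did not converge, and 1 array took a weight of 66.3.

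TIMP2-/- against WT sham (5) became 2 with the 9 sham arrays, 3 without the 3 arrays, 2 without the dimmest probe sets, 1 with 1 probe set a gene, 2 with the mean, 3 without suffixed probe sets, 3271 with weights and 2 to 10 leaving out 1 array. TIMP3-/- against WT sham (10) became 5 without the 3 arrays, 2 with 1 probe set a gene, 2 with the mean, 2001 with weights and 5 to 6 leaving out 1 array. The UUO count (1597) became 975, 1001, 1060, 1005 and 9441 without the 3 arrays, with 1 probe set a gene, with the mean, without suffixed probe sets and with weights, and 112 to 5577 leaving out 1 array. The contrast between sham and UUO (0) called 1 with the replicate block, with renewed quantile normalization, with a pseudocount of 32 and with 1 probe set a gene, 6031 with weights, and 0 to 335 leaving out 1 array. With the replicate number as a block, 17 probe sets were called between the knockouts, 16 of them among the 17, and Zmynd11 was lost (adjusted p = 0.0747). Same-numbered TIMP2-/- and TIMP3-/- sham arrays did not deviate together throughout (across probe sets, r = 0.479, -0.371 and 0.549 for numbers 1, 2 and 3), and nothing in the labels pairs them. Fewer arrays or genes enter several of these fits; otherwise the cause was not tested. The scaling alternatives moved the median of all probe sets from 0.0216 to between 0.0137 and 0.0335. Among the 17 probe sets, signal near background limits Timp3 in TIMP3-/- kidneys, BC018473 outside TIMP2-/- kidneys, Jmy and 1425583_at.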

Other observations

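Slc7a12, an amino acid transporter gene whose kidney level differs between the sexes in mice, read 194, 125 and 46.5 in TIMP2-/- sham kidneys, against 631, 336 and 196 in TIMP3-/- sham kidneys and 856, 454 and 320 in WT sham kidneys. The knockouts did not overlap, with a difference of -1.74 ± 0.64 and an adjusted p of 1 in limma. Odc1, which makes polyamines and responds to androgen in mouse kidney, differed by 0.37 ± 0.13 (adjusted p = 0.997 in limma). Of the 11 measured genes in their list, 7 were higher and 4 lower in TIMP2-/- kidneys. Over 7 sex-linked genes the median difference was 0.006, with a range from -0.23 to 0.31 and no call. Cyp24a1, which breaks down active vitamin D, read 3096, 1007 and 2283 in TIMP2-/- kidneys and 3454, 4377 and 3155 in TIMP3-/- kidneys, a difference of -0.91 ± 0.34.

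Egr1, an immediate early transcription factor, read 269, 289 and 269.5 in TIMP2-/- kidneys and 478, 411 and 499 in TIMP3-/- kidneys, with WT spanning both at 631, 472 and 209. Asns, a target of the amino acid stress response, differed by 0.60 ± 0.19 with 304, 361.5 and 398 in TIMP2-/- kidneys and 200.2, 267 and 237 in TIMP3-/- kidneys. Neither passed in limma. Over 15 ribosomal protein genes the median was -0.02, over 18 clock genes 0.04 and over 19 cell cycle genes -0.10.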
